A study of Mus musculus with 31 samples.

Results

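Zdbf2 and Adam23 are neighbouring protein-coding genes on mouse chromosome 1. They were taken by gene symbol from 5 tables of allele-specific read bases and are 2 of the 17484 features in those tables. Each had a row of its own in every table, and neither was joined with another gene in a shared row.

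The tables came from stranded mRNA sequencing of tissue and cells from crosses of C57BL/6 (B6) with JF1 mice, whose sequence differences assign a read base to the maternal or the paternal chromosome. BJ1 had a B6 mother and a JF1 father, and JB6 had the reverse. Embryonic stem cells (ESC) of both crosses were differentiated toward cerebral cortex for 12 or 21 days, with cyclopamine, an inhibitor of Hedgehog signalling, present from day 2 to day 10. Brain tissue of the same crosses was taken from E13.5 embryos (tissue labelled DT) and from newborns at P0 (cortex). There were 2 BJ1 and 2 JB6 libraries each of ESC, day 12 and day 21, 3 of each cross at E13.5, and 4 BJ1 with 3 JB6 libraries at P0. The B6 parent of the ESC carried an Oct4-GFP transgene. The labels name no clone or line beside the cross, so that in culture cell line and cross cannot be told apart. All 12 culture libraries were labelled male and 11 of the 13 in vivo libraries female, so that sex and origin are confounded in most of the comparisons below. The labels do not say whether replicates were separate cultures or animals, and p-values may then measure technical spread only.

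Genomic imprinting is the silencing of 1 parental copy of a gene by marks laid down in the germ line. Zdbf2 is an imprinted gene expressed from the paternal copy in brain and other tissues. In the early embryo a long transcript from an upstream start on the paternal copy is known to precede DNA methylation of the region before the gene body, which displaces Polycomb repression from the downstream Zdbf2 start. Adam23 encodes a neuronal membrane protein of the ADAM family that has no protease activity and binds the secreted protein LGI1 at synapses.

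The annotated starts are shown because the imprint of Zdbf2 involves both of its starts, and these differ in CpG content. The windows of 300 bases are from RefSeq on build GRCm38.p6, plus strand, with every CG pair in capitals. The read-base tables were made on mm9, so these positions apply to the windows only. The upstream Zdbf2 window is chr1:63200108-63200407, the downstream one chr1:63273019-63273318 and the Adam23 window chr1:63445641-63445940.
Zdbf2, upstream start: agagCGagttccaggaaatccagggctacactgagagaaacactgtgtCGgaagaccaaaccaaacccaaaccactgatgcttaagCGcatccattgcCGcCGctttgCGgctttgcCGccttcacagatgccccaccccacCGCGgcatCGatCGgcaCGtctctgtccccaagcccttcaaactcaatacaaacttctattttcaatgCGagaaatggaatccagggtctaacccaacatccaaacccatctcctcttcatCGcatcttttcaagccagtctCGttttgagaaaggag
Zdbf2, downstream start: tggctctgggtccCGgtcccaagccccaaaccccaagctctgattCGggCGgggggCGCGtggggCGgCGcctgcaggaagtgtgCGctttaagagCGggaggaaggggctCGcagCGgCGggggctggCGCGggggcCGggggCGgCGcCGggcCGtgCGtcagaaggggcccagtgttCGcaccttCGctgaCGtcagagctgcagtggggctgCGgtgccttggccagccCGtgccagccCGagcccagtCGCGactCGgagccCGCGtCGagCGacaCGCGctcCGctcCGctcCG
Adam23, start: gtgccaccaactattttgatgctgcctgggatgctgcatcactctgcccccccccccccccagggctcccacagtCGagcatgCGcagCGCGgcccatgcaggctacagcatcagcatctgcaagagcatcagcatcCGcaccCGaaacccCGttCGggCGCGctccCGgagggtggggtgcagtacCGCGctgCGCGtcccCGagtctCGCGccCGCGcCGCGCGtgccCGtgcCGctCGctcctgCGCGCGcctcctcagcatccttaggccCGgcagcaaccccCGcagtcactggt

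The upstream Zdbf2 window held 15 CG pairs, a number that 34.6% of 32851 such windows reached, and the downstream window held 38, reached by 4.95%. The Adam23 window held 31 pairs, reached by 10.6%, and the median over all windows was 7. The Zdbf2 windows start 72911 bases apart, and the Adam23 window starts 172622 bases after the downstream Zdbf2 window. The upstream Zdbf2 start lies inside the annotated Gpr1 gene. The tables sum read bases over a whole gene, so transcripts from the 2 Zdbf2 starts cannot be told apart here, and no DNA methylation was measured in these files.

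Libraries held 5192382 to 8618253 read bases at strain differences, of which 10.6 to 21.98% were mitochondrial. The ESC JB6 pair was the least alike of the replicate pairs, with a correlation of log2 levels across genes of 0.884 where the other pairs had 0.956 to 0.987. Levels are in CPM, read bases per 1000000 read bases of a library. Summed pluripotency markers were at 2406 to 4820 CPM in ESC and 25.3 to 108 at the other stages. The pluripotency gene Pou5f1 itself averaged only 3 read bases in ESC and had none elsewhere. Read bases are counted only at strain differences, so a low count can also come from few differences in a gene. Levels of different genes are therefore not comparable, and the Pou5f1 count does not show low expression. Esrrb and Nanog averaged 2105 and 163 CPM in ESC. Markers of mesendoderm and epithelium (7 of 7 measured) summed to 2103 to 3573 CPM at day 12 and 2512 to 3224 at day 21, against 2.46 to 21.3 in vivo, where Foxa2 and Gata4 were at 0. Markers of vessels, blood and meninges (5 of 7 measured) summed to 1248 to 2062 at day 12 and 5645 to 9050 at day 21, against 27.9 to 638 in vivo. Col3a1 made up most of the culture sums, with mean levels of 1616 CPM (day 12) and 7164 (day 21). Col1a1 and Dcn were also higher at day 21 than at P0. Mean Pecam1 was no higher in culture (day 12: 21.0, day 21: 22.6, E13.5: 40.1, P0: 24.8). Cspg4 averaged 2.91 (day 12) and 6.12 (day 21), below P0 (24.6) and above E13.5 (1.95). No other gene of the list was measured, so the sums cannot be read as vessel or blood content. Projection neuron markers (5 of 5) summed to 5.72 to 16.9 in differentiated cultures and 289 to 731 in vivo. The part of cell composition in the differences between culture and cortex below was not tested, and in bulk RNA fewer cells of a type and less RNA per cell cannot be told apart.

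Zdbf2 was read almost wholly from the paternal copy in vivo and from both copies in differentiated cultures. At E13.5 its maternal share ranged from 0 to 5.60%, with a median of 0.494%. At P0 the lowest share and the median were both 0%, and the highest was 29.5%. In culture the shares were 54.1% and 55.3% in BJ1 and 40.0% and 37.2% in JB6 at day 12. At day 21 they were 56.5% and 53.2% in BJ1 and 39.4% and 39.8% in JB6. ESC were intermediate, with 37.1% and 30.1% in BJ1 and 4.00% and 17.2% in JB6. No differentiated culture overlapped any in vivo library.

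**Figure D1:**
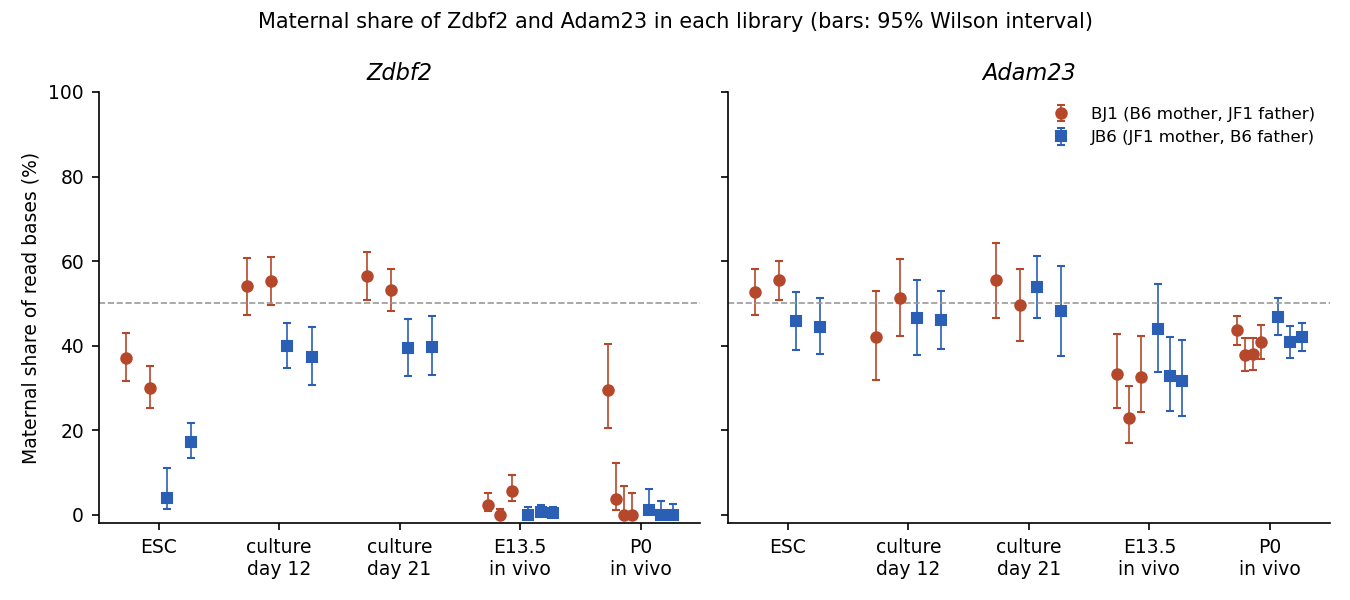
Maternal share of read bases (%) of Zdbf2 (left) and Adam23 (right) in each of 25 libraries, by stage. Points are libraries, circles BJ1 and squares JB6, bars are 95% Wilson intervals for counting error only, and the dashed line marks equal use of both copies. Zdbf2 lies between 37.2% and 56.5% in differentiated cultures and, apart from 1 P0 library at 29.5%, at or below 5.60% in vivo. Adam23 lies below 50% in all 13 in vivo libraries.

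These shares rested on 53 to 391 read bases per library spread over 14 to 28 covered strain differences. A read can cover several differences, so read bases are not independent molecules, and all intervals and limits cover counting error only. In E13.5 BJ1 replicate 2, 0 of 291 read bases were maternal, which allows a share of up to 1.03%, and in E13.5 JB6 replicate 1, 0 of 204, which allows up to 1.47%. At P0 the 4 libraries with no maternal read base allowed up to 1.95% to 5.66%. Most of the maternal read bases at P0 came from BJ1 replicate 1, with 23 maternal and 55 paternal over 21 strain differences (95% Wilson interval 20.5 to 40.4%). Without that library the P0 mean was 0.795% ± 1.46 (SD, n = 6), against 4.89% ± 10.9 (SD, n = 7) with it. In the same library Adam23 was at 43.6%, within the P0 range of 37.8 to 46.9%. The median maternal share of the listed paternally expressed genes was 0.0931% there, and 14 of 17 lay under 10%. The other P0 libraries had medians of 0 to 2.30%. Pooled over the list, the share was 5.52% in BJ1 replicate 1 and 7.26% in BJ1 replicate 2, against 1.70 to 2.05% in the rest of P0. Its vessel, blood and meninges markers summed to 158 CPM, against 90.8 to 122 in the other P0 BJ1 libraries. The P0 JB6 libraries, with Zdbf2 shares of 1.14%, 0% and 0%, had 171, 163 and 148 CPM of the same markers. The cause of the higher Zdbf2 share in P0 BJ1 replicate 1 was not tested.

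The paternal bias of Zdbf2 passed the test at E13.5 and in ESC, missed it narrowly at P0, and missed it at day 12 and day 21. Parental bias is the log2 ratio of maternal to paternal read bases with the strain effect removed, and each p is from edgeR's quasi-likelihood test with Benjamini-Hochberg adjustment over all autosomal genes. At E13.5 it was -6.61 ± 0.239 (SE, adjusted p = 1.63e-15 in edgeR), with a maternal share below 50% in 6 of 6 libraries. Of all genes tested, 0.49% passed in either direction at E13.5, 0.548% at P0, 1.4% in ESC, 1.78% at day 12 and 1.38% at day 21. In ESC the bias was -1.80 ± 0.171 (SE, adjusted p = 2.26e-06 in edgeR), below 50% in 4 of 4 libraries, but adjusted p was 0.337 in limma on log2 ratios. Without ESC JB6 replicate 2 the edgeR value was -2.76, and it passed without each of the ESC libraries. At day 12 it was -0.19 ± 0.12 (SE, adjusted p = 0.812 in edgeR) and at day 21 -0.17 ± 0.112 (SE, adjusted p = 0.90 in edgeR). At P0 it was -5.60 ± 0.734 (SE, adjusted p = 0.0505 in edgeR), and all 7 libraries lay below 50%. The P0 bias passed in limma (adjusted p = 0.0122), in DESeq2 (4.41e-07) and in edgeR with separate scaling of the alleles (0.0486). Without P0 BJ1 replicate 1 it was -7.11 (adjusted p = 1.24e-19 in edgeR). It also passed without BJ1 replicate 3 (adjusted p = 0.0466) and without BJ1 replicate 4 (adjusted p = 0.00712) in edgeR. Without any 1 of the other 4 libraries it did not pass, with adjusted p up to 0.408 in edgeR.

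The difference in parental bias between culture and cortex was larger than the spread between libraries. The mean share was 46.7% ± 9.39 (SD, n = 4) at day 12 and 1.48% ± 2.19 (SD, n = 6) at E13.5, a gap of 45.2 points with a two-sided exact permutation p of 0.00952, the smallest that 210 regroupings can give. Day 21 stood 42.3 points above P0 (two-sided exact permutation p = 0.00606, the smallest that 330 regroupings can give). Within BJ1 the gaps were 52.1 and 46.6 points and within JB6 38.3 and 39.2 points. In the joint edgeR fit of 5 stages, the difference was 6.42 ± 0.575 (SE, adjusted p = 1.47e-06) for day 12 against E13.5 and 5.42 ± 0.697 (SE, adjusted p = 1.48e-04) for day 21 against P0. Day 12 also serves in the comparison with ESC below, so those results share libraries. Across all genes 0.912% passed in the first of these comparisons and 0.909% in the second. In the 2 in vivo libraries labelled male, as all cultures were, the Zdbf2 share was 2.28% (E13.5 BJ1 replicate 1) and 3.64% (P0 BJ1 replicate 2).

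From ESC to day 12 the mean maternal share went from 22.1% ± 14.6 (SD, n = 4) to 46.7% ± 9.39 (SD, n = 4). The ranges met without overlapping, since the highest ESC library was at 37.1% and the lowest day 12 library at 37.2%. The rise in bias, 1.61 ± 0.416 (SE), did not pass in the joint edgeR fit (adjusted p = 0.176), where 0.341% of genes did. It passed when only these 2 stages were fitted (1.61, adjusted p = 1.95e-05 in edgeR). Without ESC JB6 replicate 2 the rise was 2.58. In that library mesendoderm and epithelium markers summed to 1341 CPM, against 345 to 406 in the other ESC libraries, and pluripotency markers to 2406 CPM, against 4074 to 4820, and their part in the result was not tested. Leaving out ESC JB6 replicate 1, which had 3 maternal and 72 paternal read bases, gave an ESC mean of 28.1% ± 10.1 (SD, n = 3). Between day 12 and day 21 the bias differed by 0.019 ± 0.38 (SE, adjusted p = 1 in edgeR), and 0.0495% of genes passed there. P0 against E13.5 gave 1.02 ± 2.67 (SE, adjusted p = 0.995 in edgeR), and -0.50 without P0 BJ1 replicate 1.

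Read by allele, it was the maternal copy of Zdbf2 that differed most between culture and cortex. Maternal Zdbf2 stood at 21.1 and 29.8 CPM in BJ1 and 20.1 and 8.12 in JB6 at day 12, and at 0 to 2.04 (median 0.246) at E13.5. At day 21 it stood at 23.2 and 27.9 in BJ1 and 13.2 and 11.9 in JB6, and at P0 at 0 to 3.23 (median 0). The cultures did not overlap either in vivo stage. The maternal level was 5.30 ± 0.704 (SE) higher on the log2 scale at day 12 than at E13.5 (adjusted p = 4.63e-07 in edgeR, higher in 4 of 4 cultures), where 74.6% of genes passed. It was 5.23 ± 0.66 (SE) higher at day 21 than at P0 (adjusted p = 1.70e-07 in edgeR), where 75.9% of genes passed. Such fitted values depend on a prior count where libraries are at 0.

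**Figure D2:**
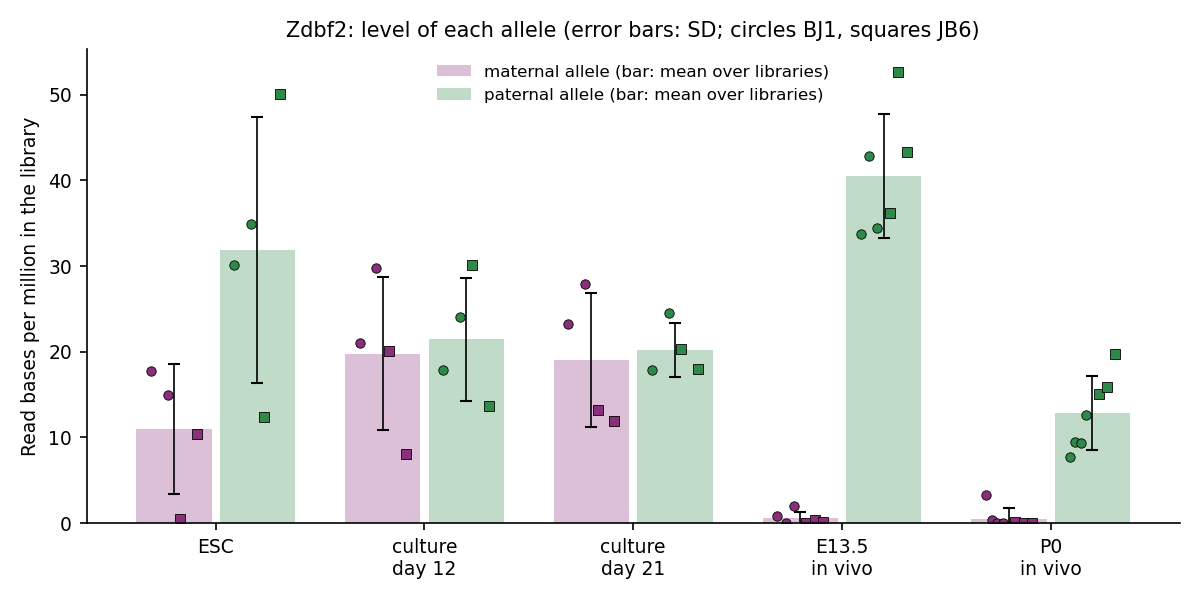
Level of the maternal (purple) and paternal (green) allele of Zdbf2 in CPM, by stage. Bars are means over libraries, error bars are SD, and each point is 1 library (circles BJ1, squares JB6). Both alleles average about 20 at day 12 and day 21 (19.8 maternal and 21.4 paternal at day 12), whereas the maternal mean is 0.554 at E13.5 and 0.538 at P0.

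Paternal Zdbf2 moved less. It stood at 17.8 and 24.1 CPM in BJ1 and 30.2 and 13.7 in JB6 at day 12, and at 33.8 to 52.6 (median 39.5) at E13.5, with no overlap. At day 21 it stood at 17.9 and 24.6 in BJ1 and 20.3 and 18.0 in JB6, and at P0 at 7.73 to 19.7 (median 12.7), where the groups overlapped. The paternal level was -0.86 ± 0.262 (SE) on the log2 scale at day 12 relative to E13.5 (adjusted p = 0.00469 in edgeR, where 74.9% of genes passed). It was 0.68 ± 0.255 (SE) higher at day 21 than at P0 (adjusted p = 0.0185 in edgeR, where 75.6% of genes passed). That call was lost without day 21 BJ1 replicate 2 (0.55, adjusted p = 0.0823 in edgeR). The 2 comparisons thus differed in sign for the paternal copy, and that difference was not itself tested.

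Between ESC and day 12 the maternal and paternal levels of Zdbf2 had opposite signs. Maternal levels in ESC were 17.8 and 15.0 in BJ1 and 0.516 and 10.4 in JB6, and paternal levels were 30.2 and 34.9 in BJ1 and 12.4 and 50.1 in JB6. The maternal copy was 0.80 ± 0.584 (SE) higher at day 12 (adjusted p = 0.221 in edgeR, where 72.1% of genes passed). The paternal copy was lower by -0.78 ± 0.284 (SE, adjusted p = 0.0162 in edgeR, where 72.3% of genes passed). This call was lost without ESC BJ1 replicate 2 (-0.68, adjusted p = 0.0539 in edgeR), without ESC JB6 replicate 2 (-0.57, adjusted p = 0.0914) and without day 12 JB6 replicate 2 (-0.58, adjusted p = 0.0764). With library totals and no TMM factor it was -0.58 (adjusted p = 0.0834 in edgeR), a scaling that moves the median of all genes from 0.035 to 0.25 in this comparison.

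The summed level of Zdbf2 was lower at P0 than at E13.5 and day 21 and did not pass between day 12 and E13.5. It was 48.0 and 49.9 CPM in ESC BJ1 and 12.9 and 60.5 in ESC JB6. At day 12 it was 38.9, 53.9, 50.3 and 21.8 and at day 21 41.1, 52.5, 33.5 and 29.9 (BJ1 first, then JB6). At E13.5 it ranged from 34.6 to 53.0 (median 39.7) and at P0 from 9.33 to 19.7 (median 12.7). Every P0 library lay below every E13.5 library, and the level was -1.51 ± 0.253 (SE) on the log2 scale at P0 relative to E13.5 (adjusted p = 7.64e-06 in edgeR, 75% of genes passing). It was 1.56 ± 0.276 (SE) higher at day 21 than at P0 (adjusted p = 1.40e-05 in edgeR, 80.7% of genes passing). For day 12 against E13.5 the difference was 0.057 ± 0.28 (SE, adjusted p = 0.857 in edgeR, 79.7% of genes passing), although the alleles differed as given above. The paternal copy alone was -1.55 ± 0.226 (SE) at P0 relative to E13.5 (adjusted p = 9.97e-07 in edgeR, 69.6% of genes passing). The maternal copy was under the floor on low counts there and was not tested. Day 12 relative to ESC gave -0.26 ± 0.308 (SE, adjusted p = 0.450 in edgeR, 77.1% of genes passing), and -0.56 (adjusted p = 0.0434) without ESC JB6 replicate 1.

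At day 12 and day 21 the B6 copy of Zdbf2 was read more often than the JF1 copy whichever parent gave it. Differentiated BJ1 cultures, with a maternal B6 copy, averaged 54.7% ± 0.834 maternal at day 12 and 54.9% ± 2.34 at day 21 (SD, n = 2 each). JB6, with a paternal B6 copy, averaged 38.6% ± 1.96 and 39.6% ± 0.276. Strain bias, the log2 ratio of B6 to JF1 with the parental effect removed, was 0.47 ± 0.119 at day 12 (SE, adjusted p = 5.13e-04 in edgeR, where 35.9% of genes passed). It was 0.44 ± 0.111 at day 21 (SE, adjusted p = 0.00171 in edgeR, 34.4% passing) and 0.81 ± 0.177 in ESC (SE, adjusted p = 0.00129 in edgeR, 44.6% passing). In DESeq2 the adjusted p was 0.0733 at day 12 and 0.113 at day 21, and in limma 0.0924 in ESC. Without ESC JB6 replicate 2 the ESC value was 1.77. At E13.5 it was 1.31 ± 0.493 (SE, adjusted p = 0.0342 in edgeR, 45.9% passing), from 5, 0 and 13 maternal read bases in BJ1 and 0, 2 and 1 in JB6. That call was lost without any 1 of the E13.5 libraries other than BJ1 replicate 2, and without BJ1 replicate 3 the value was 0.67 (adjusted p = 0.308 in edgeR). At P0 it was 2.37 ± 1.19 (SE, adjusted p = 0.159 in edgeR, 48.2% passing), 2.63 (adjusted p = 0.0461) without BJ1 replicate 4, and 0.86 without BJ1 replicate 1. A strain bias can come from the alleles or from how reads map to B6 and JF1 sequence, which were not told apart. In culture, where line and cross are the same, a strain bias also cannot be told apart from a parental bias that differs between lines.

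Adam23 had a maternal share below 50% in vivo and near 50% in culture, with a smaller bias in vivo than Zdbf2. At E13.5 its shares ranged from 23.0 to 43.9% (median 32.7%) and at P0 from 37.8 to 46.9% (median 40.8%). In ESC they were 52.8% and 55.5% in BJ1 and 45.8% and 44.5% in JB6. At day 12 they were 42.0% and 51.4% in BJ1 and 46.6% and 46.0% in JB6, and at day 21 55.6%, 49.6%, 53.9% and 48.1% in the same order. All 13 in vivo libraries were below 50%, and 7 of the 12 culture libraries were too. The shares rested on 79 to 817 read bases over 20 to 31 strain differences.

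The paternal bias of Adam23 passed at both in vivo stages. At E13.5 it was -1.07 ± 0.143 (SE, adjusted p = 1.34e-07 in edgeR) and at P0 -0.49 ± 0.0545 (SE, adjusted p = 1.89e-08 in edgeR). In limma on log2 ratios the E13.5 value was -1.03 (adjusted p = 0.0872). In edgeR the values in culture were -0.02 ± 0.105 in ESC, -0.19 ± 0.172 at day 12 and 0.12 ± 0.161 at day 21 (SE), with adjusted p of 0.992, 0.939 and 0.976. The B6 copy was read 0.26 ± 0.105 (SE) more than the JF1 copy in ESC (adjusted p = 0.0452 in edgeR), a call lost without any 1 of the 4 libraries (adjusted p = 0.0762 to 0.253). No strain bias of Adam23 passed at the other stages in edgeR.

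The Adam23 share was 46.5% ± 3.84 (SD, n = 4) at day 12 and 32.9% ± 6.65 (SD, n = 6) at E13.5, a gap of 13.6 points with a two-sided exact permutation p of 0.019. The ranges overlapped, since E13.5 JB6 replicate 1 was at 43.9% and day 12 BJ1 replicate 1 at 42.0%. At day 21 it was 51.8% ± 3.52 (SD, n = 4) and at P0 41.4% ± 3.18 (SD, n = 7), a gap of 10.4 points without overlap (two-sided exact permutation p = 0.00606, the smallest that 330 regroupings can give). Within BJ1 the gaps were 17.004 and 12.6 points and within JB6 10.2 and 7.81. In the joint edgeR fit the differences in bias were 0.88 ± 0.196 (SE, adjusted p = 0.00608) for day 12 against E13.5 and 0.62 ± 0.157 (SE, adjusted p = 0.0328) for day 21 against P0. With counts divided by 3, to allow for several read bases per read, neither passed (adjusted p = 0.557 and 0.639 in edgeR), while the differences were 0.87 and 0.65. The first call was also lost without day 12 BJ1 replicate 2 (0.73, adjusted p = 0.231 in edgeR) and without E13.5 BJ1 replicate 2 (0.75, adjusted p = 0.0603). The second was lost without any 1 of 7 of the 11 libraries: day 21 BJ1 replicates 1 (adjusted p = 0.329) and 2 (0.0638) and JB6 replicate 1 (0.60), and P0 BJ1 replicates 2 (0.0539) and 3 (0.0570) and JB6 replicates 2 (0.0792) and 3 (0.0680), all in edgeR. It was lost too in limma (adjusted p = 0.225) and with the replicate number as a block (0.56, adjusted p = 0.160 in edgeR). P0 against E13.5 gave 0.58 ± 0.145 (SE, adjusted p = 0.133 in edgeR, where 0.136% of genes passed), and 0.69 (adjusted p = 0.0397) without E13.5 JB6 replicate 1.

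The level of Adam23 rose from E13.5 to P0 and was far lower in differentiated cultures than at P0. It was 59.2 and 69.8 CPM in ESC BJ1 and 34.5 and 40.3 in ESC JB6. At day 12 it was 15.4, 20.6, 17.9 and 23.4 and at day 21 16.5, 17.6, 30.1 and 12.7 (BJ1 first, then JB6). It ranged from 14.1 to 21.8 (median 16.5) at E13.5 and from 83.2 to 109 (median 103) at P0. Every P0 library lay above every other library, and every ESC library above every differentiated culture. P0 was 2.63 ± 0.168 (SE) above E13.5 on the log2 scale, a 6.17-fold difference (adjusted p = 2.02e-13 in edgeR). Day 21 relative to P0 gave -2.35 ± 0.195 (SE, adjusted p = 2.95e-11 in edgeR) and day 12 relative to ESC -1.58 ± 0.206 (SE, adjusted p = 1.36e-07 in edgeR). Day 12 against E13.5 differed by 0.26 ± 0.192 (SE, adjusted p = 0.211 in edgeR).

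**Figure D3:**
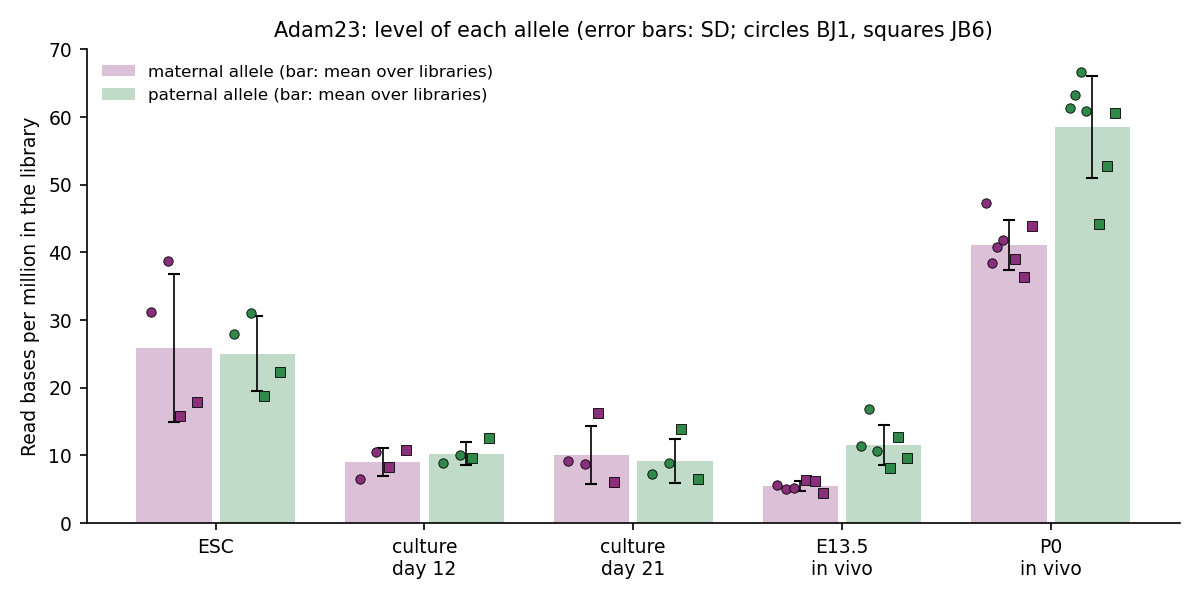
Level of the maternal (purple) and paternal (green) allele of Adam23 in CPM, by stage. Bars are means over libraries, error bars are SD, and each point is 1 library (circles BJ1, squares JB6). Both alleles are highest at P0, with means of 41.1 maternal and 58.5 paternal, against 5.48 and 11.6 at E13.5.

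Both copies of Adam23 took part in the rise. Maternal Adam23 went from 4.45 to 6.39 (median 5.44) at E13.5 to 36.3 to 47.4 (median 40.8) at P0, and paternal Adam23 from 8.16 to 16.8 (median 11.03) to 44.2 to 66.7 (median 60.9). The log2 differences were 2.99 ± 0.207 for the maternal and 2.42 ± 0.164 for the paternal copy (SE, adjusted p = 9.82e-13 and 7.92e-13 in edgeR), where 70.1% of genes passed for the maternal and 69.6% for the paternal copy. At day 12 the maternal copy stood at 6.46, 10.6, 8.35 and 10.8, above every E13.5 library, and the difference was 0.80 ± 0.239 (SE, adjusted p = 0.00399 in edgeR). The paternal copy stood at 8.92, 10.0, 9.59 and 12.7, within the E13.5 range, and differed by -0.079 ± 0.194 (SE, adjusted p = 0.720 in edgeR). Zdbf2 and Adam23 thus shared a higher maternal level at day 12 than at E13.5, while the sums of both alleles did not pass in that comparison. At day 21 relative to P0 the maternal levels had opposite signs. Maternal Adam23 was at -2.01 ± 0.225 (SE, adjusted p = 9.01e-09 in edgeR), and maternal Zdbf2 at 5.23. Paternal Adam23 was at -2.64 ± 0.197 there (SE, adjusted p = 4.53e-12 in edgeR). Of all genes, 75.9% passed for the maternal and 75.6% for the paternal copy.

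The other genes around Zdbf2 showed little parental bias. Of 17 genes listed for the region, 16 were in the tables and 11 to 14 passed the floor on low counts at a stage. Those passing the test were Zdbf2 in ESC, Zdbf2 and Adam23 at E13.5, and Adam23 and Eef1b2 at P0. Of all genes tested, 1.4% passed in ESC, 0.49% at E13.5 and 0.548% at P0. Eef1b2, a translation elongation factor subunit 2 protein-coding genes before Zdbf2 in the annotation, had a maternal share of 44.2% ± 1.19 (SD, n = 7) at P0 and 48.4% ± 1.60 (SD, n = 6) at E13.5. Its bias at P0 was -0.34 ± 0.0396 (SE, adjusted p = 5.75e-08 in edgeR). Its counts are uncertain where reads are shared with near-identical copies of the gene, and the part of such reads in this value was not tested. The median bias of the region's tested genes lay between -0.034 and 0.10 over the 5 stages, where the median over all genes lay between -4.1e-04 and 0.011. In the difference between day 21 and P0, 3 of 13 tested genes of the region passed: Zdbf2, Adam23 and Eef1b2 (0.44 ± 0.0544, SE, adjusted p = 9.21e-08 in edgeR). Between day 12 and E13.5, Zdbf2 and Adam23 passed of 11. Of all genes, 0.909% passed between day 21 and P0 and 0.912% between day 12 and E13.5.

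**Figure D4:**
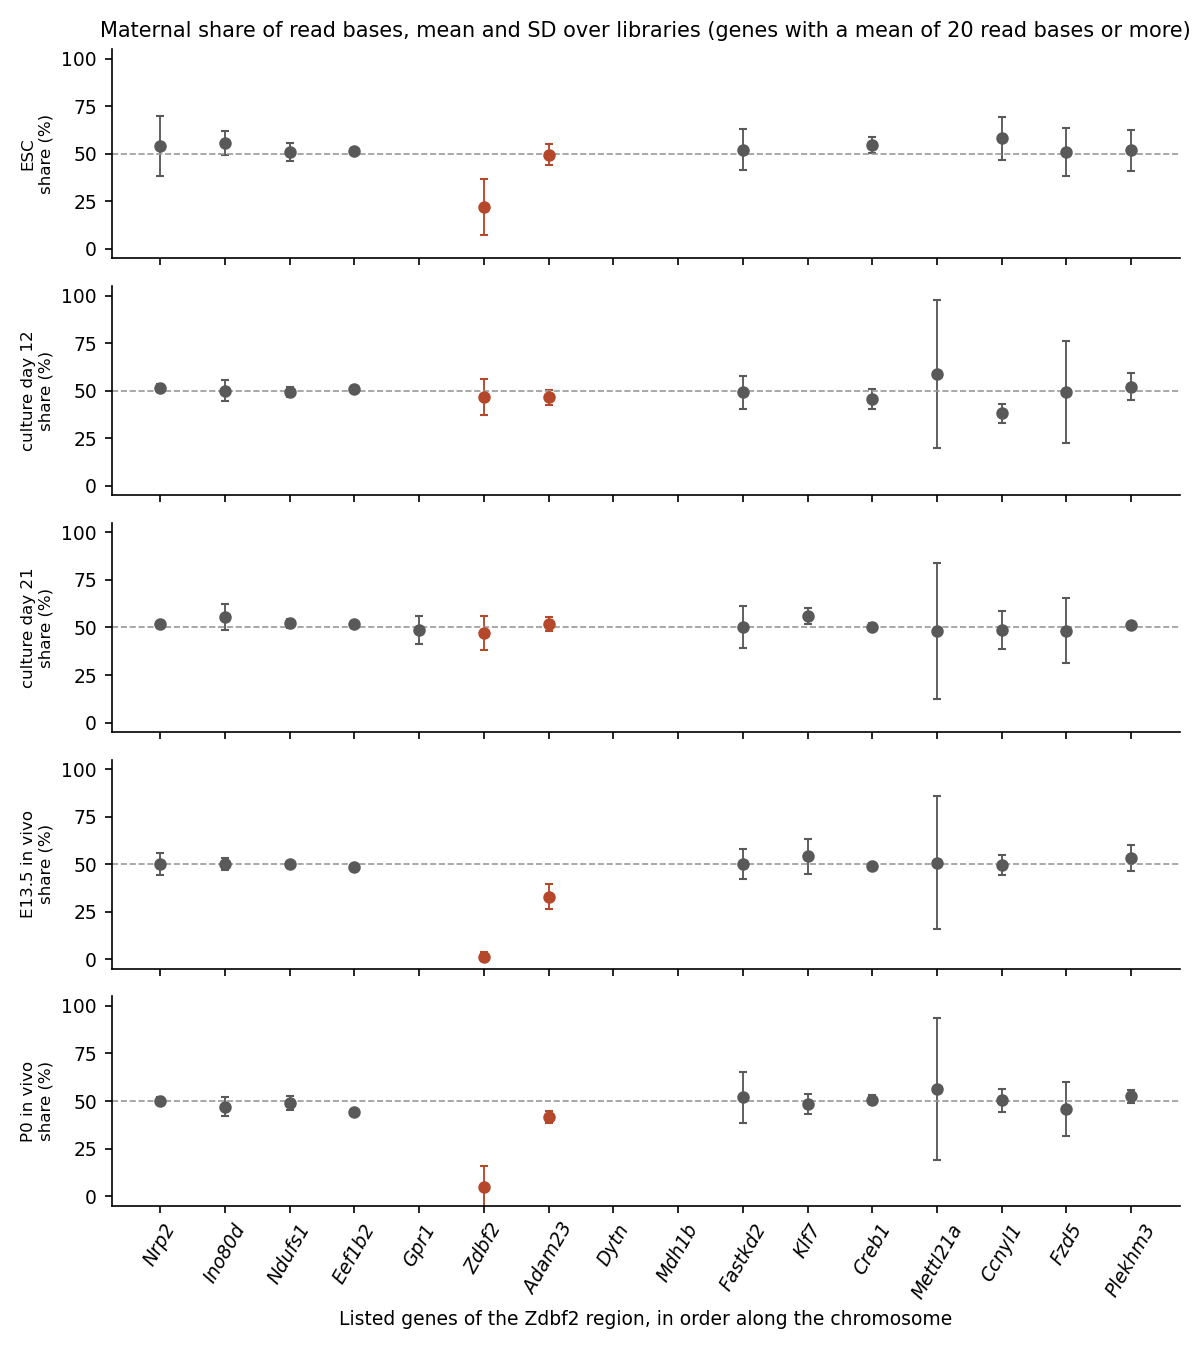
Maternal share of read bases (%) of listed genes of the Zdbf2 region in chromosomal order, 1 panel per stage. Points are means and bars SD over libraries, shown for genes averaging 20 read bases or more, with Zdbf2 and Adam23 in red and a dashed line at 50%. Zdbf2 is at 1.48% and Adam23 at 32.9% at E13.5, and the wide bars of Mettl21a span crosses on opposite sides of 50%.

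Gpr1, a receptor for the adipokine chemerin that lies just before Zdbf2, was read mainly in cultures. It had 0 to 7 read bases in ESC and 0 to 13 in vivo. At day 12 it stood at 1.90, 1.48, 1.39 and 2.205 CPM and at day 21 at 8.72, 14.2, 15.6 and 14.1 (BJ1 first, then JB6). The day 21 level was 2.96 ± 0.462 (SE) above day 12 on the log2 scale (adjusted p = 7.86e-06 in edgeR, where 50.9% of genes passed) and 4.47 ± 0.429 (SE) above P0 (adjusted p = 4.72e-10 in edgeR). Its maternal shares at day 21 were 56.5%, 52.8%, 44.6% and 40.9%, close to those of Zdbf2 in the same libraries, and its parental bias was -0.085 ± 0.192 (SE, adjusted p = 0.988 in edgeR). Dytn, a dystrophin relative after Adam23, had no read base in culture and a mean of 0.667 at E13.5 and 0.429 at P0.

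Zdbf2 in culture stood at the upper end of the listed paternally expressed imprinted genes. Among genes on that list averaging 20 read bases or more (27 listed, 25 in the tables), 20 of 22 had a lower maternal share than Zdbf2 at day 12 and at day 21. The list's median share was 10.6% at day 12 and 10.2% at day 21, and 0.846% at E13.5 and 1.49% at P0. At E13.5, 13 of 19 lay below Zdbf2, and in ESC 10 of 15. The list passed paternal at 12 of 15 genes in ESC, 20 of 22 at day 12, 20 of 22 at day 21, 19 of 19 at E13.5 and 18 of 19 at P0, with medians of -5.31, -4.68, -4.41, -7.29 and -7.01. Over all genes 0.356%, 0.483%, 0.326%, 0.27% and 0.317% passed paternal at these stages. The list is known for this bias, so these counts describe the libraries and say nothing particular of Zdbf2.

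**Figure D5:**
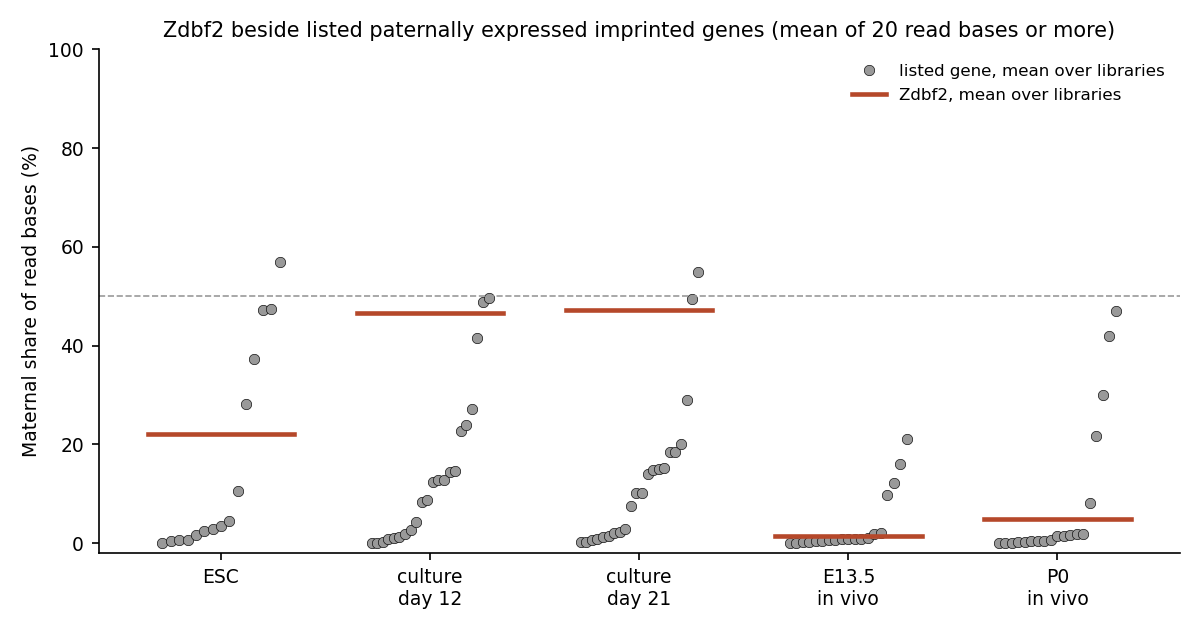
Maternal share of read bases (%) of each listed paternally expressed imprinted gene averaging 20 read bases or more (grey points, means over libraries, sorted within a stage) and of Zdbf2 (red line, mean over libraries), by stage. Zdbf2 is at 46.7% and 47.2% at day 12 and day 21, above 20 of 22 listed genes, and at 1.48% at E13.5, where the median listed gene is at 0.846%.

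Some other genes of the list also had a higher maternal share in culture. The list's median share differed between the crosses there, over listed genes with 20 read bases or more in a library. It was 11.4% and 21.4% in BJ1 and 2.61% and 1.13% in JB6 at day 12. At day 21 it was 15.7% and 8.86% in BJ1 and 2.00% and 1.43% in JB6. In vivo medians were 0 to 2.30%. Pooled by cross at day 21, the row of Snrpn alone was at 20.1% in BJ1 and 0.275% in JB6. Slc38a4 was at 51.2% and 47.8%. Between day 12 and E13.5, 6 of 19 listed genes had a higher and 1 a lower maternal to paternal ratio, where 0.912% of all genes passed. The median difference was 1.93, against 0.0029 over all genes. The largest among the passing ones were Peg12 (6.19 ± 0.946), Ndn (4.63 ± 0.642), Mkrn3 (4.47 ± 0.649) and Slc38a4 (3.05 ± 0.283), with SE and adjusted p of 2.95e-05, 2.35e-06, 4.21e-06 and 1.31e-10 in edgeR. Between day 21 and P0, 6 of 19 were higher and 2 lower, where 0.909% of all genes passed. The median was 1.65 against 0.011 over all genes. Snrpn (5.59 ± 1.25), Ndn (5.28 ± 0.472), Mkrn3 (4.61 ± 1.01) and Usp29 (4.17 ± 0.733) were the largest, with SE and adjusted p of 0.00831, 3.26e-11, 0.00577 and 1.96e-04 in edgeR. The values for Zdbf2 were 6.42 for day 12 against E13.5 and 5.42 for day 21 against P0, the latter below that of Snrpn. The 5 features whose share profile over the 10 groups of stage and cross was most like that of Zdbf2, among 7842, were rows of the imprinted genes Slc38a4, Mkrn3, Snrpn and Igf2. Slc38a4, an amino acid transporter gene, differed from Zdbf2 by 12.1 points on average, Mkrn3 by 16.7 and Igf2 by 17.5. A row joining Snrpn with Snurf differed by 17.2 and the row of Snrpn alone by 18.4. Slc38a4 was read at 48.9% ± 1.36 (SD, n = 4) maternal at day 12 and 9.84% ± 8.37 (SD, n = 6) at E13.5.

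Genes that lay down or read the marks of imprinting were mostly lower at day 12 than in ESC. Of 17 listed genes of DNA methylation and Polycomb repression, 13 were lower and 2 higher at day 12 than in ESC, where 77.1% of all genes passed in either direction, with a median log2 difference of -1.90 against 0.037 over all genes. Dnmt3l, a cofactor of de novo DNA methylation, was lower by -7.89 ± 0.407, Dnmt3b, a de novo methyltransferase, by -4.83 ± 0.24, Tet1, which oxidises methylcytosine, by -4.45 ± 0.348, and Zfp57, which guards imprints, by -3.47 ± 0.24 (SE, adjusted p = 2.39e-10, 3.19e-15, 3.03e-11 and 1.65e-12 in edgeR). Against E13.5, 9 of 16 were lower and 4 higher at day 12, a share near the 79.7% of all genes that passed, with a median of -0.41 against -0.10 over all genes. Suz12, a core subunit of Polycomb repressive complex 2, was at -2.05 ± 0.172 and its catalytic subunit Ezh2 at -1.38 ± 0.156 (SE, adjusted p = 5.09e-11 and 1.07e-08 in edgeR). Tet2 was at -1.81 ± 0.389 and Tet1 at -1.35 ± 0.3 (SE, adjusted p = 1.91e-04 and 2.41e-04 in edgeR). The link of these levels to the Zdbf2 share was not tested.

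Most genes listed with Adam23 also had a higher level at P0 than at E13.5. Of 13 listed LGI ligands, ADAM relatives and partners, all were in the tables and 9 passed the floor for P0 against E13.5, of which 8 rose and 1, Itgav, fell, where 75% of all genes passed in either direction, with a median of 2.07 against 0.0019 over all genes. The ligand Lgi1 rose by 3.22 ± 0.207, its relative Lgi2 by 2.19 ± 0.226 and the Adam23 relative Adam11 by 3.12 ± 0.164 (SE, adjusted p = 2.09e-13, 2.05e-09 and 4.28e-15 in edgeR). Relative to P0, 6 of 9 were lower and 3 higher at day 21, where 80.7% of all genes passed in either direction, with a median of -2.35 against 0.0031 over all genes. The potassium channel gene Kcna1 was at -4.84 ± 0.393, the LGI1 receptor Adam22 at -3.73 ± 0.171, Lgi1 at -3.49 ± 0.252 and Adam11 at -3.38 ± 0.198 (SE, adjusted p = 8.89e-11, 3.02e-16, 2.07e-12 and 3.56e-14 in edgeR). Summed neuron markers (6 of 7 measured) moved the same way in these comparisons, from 1312 to 2305 CPM at E13.5 to 10686 to 11459 at P0, and 1373 to 1985 at day 21. They did not move with Adam23 in others. All 6 were lower at day 12 than at E13.5 (median -3.18) and higher at day 21 than at day 12 (median 2.27). The Adam23 level passed in neither (0.26 and 0.018 in edgeR). In ESC the neuron markers summed to only 346 to 516 CPM. The part of neuron content in the levels of the listed genes was not tested. In parental bias Adam23 alone of this list passed, out of 7 tested genes at E13.5 and 9 at P0. Of all genes tested, 0.49% and 0.548% passed there.

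Over the 25 libraries the summed levels of Zdbf2 and Adam23 had a Pearson correlation of log2(CPM + 1) of -0.70, given as a description only since libraries share stages and scaling. Among 8107 genes those most like Zdbf2 were Rod1 (0.92), Mpp7 (0.90), Numb (0.90), Nek7 (0.88) and Cpne3 (0.86). Those most like Adam23 were Osbpl1a (0.96), Ptprk (0.95), Foxp1 (0.94), 2310061I04Rik (0.94) and Pik3cd (0.94).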

How the data were processed

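Allele-specific mRNA sequencing of 25 libraries of the B6 and JF1 crosses was analysed, and the E14 cultures were not analysed here. The deposited tables hold counts of read bases at strain differences, summed per gene for each parental allele by the authors, per the file headers. Besides the counts they give the number of covered strain differences per gene. Per the submitters' processing notes, the authors used CASAVA 1.8.2, Novoalign, SAMtools mpileup 0.1.18, HTSeq and edgeR with build mm9. A read covering several differences is counted several times, so that 2 read bases can come from 1 molecule. Intervals (Wilson, 95%) and limits for a count of 0 (3 counts) therefore cover counting error only. Nothing in the labels says that replicates were separate cultures or animals.

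From these counts, shares, CPM and edgeR 4.0.16 quasi-likelihood fits (R 4.3.3, TMM factors from summed alleles, Benjamini-Hochberg adjusted p under 0.05) were computed for genes with a mean of 20 read bases, or 10 for levels of 1 allele. Bias and levels of 1 allele were fitted on autosomal genes, and summed levels on all genes. Parental and strain bias were fitted per stage, with the library as a block, and differences in bias and level over all 5 stages jointly. Shares were compared by two-sided exact permutation tests (scipy 1.17.1). Alternatives were DESeq2 1.42.0, limma 3.58.1 (pseudocount 1), counts divided by 3, other scalings, no floor, a replicate block and leaving out each library. Fits were tested on simulated data, where 98.5% of 200 genes changed 4-fold were recovered for the difference in bias between day 12 and E13.5 (9199 genes run), with 8 false calls. The simulation had 1 spread for all genes, no strain bias and no reads counted several times. Changes as small as those of Adam23 (1.85-fold and 1.53-fold) were not simulated. Zdbf2 and Adam23 and all gene lists were chosen with earlier results of these data known. Values were given for both genes at every stage, for up to 4 passing genes per list and comparison by size of the change, for Gpr1 and Dytn beside them, and for the 5 genes most alike in level or share profile. Eef1b2 was named after its values were seen, as it passed. Likeness used log2(CPM + 1) or shares.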

Additional observations from a re-analysis of the deposited data

Results flagged for a closer look

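In P0 BJ1 replicate 1 the Zdbf2 maternal share of 29.5% and maternal level of 3.23 CPM stood apart from the rest of P0 and of the P0 BJ1 libraries. The gap to the nearest library exceeded Dixon's 95% critical value, in 48 such checks. Chance marks about 1 in 20 where values are normally distributed. Zdbf2 shares at P0 cannot fall below 0 and several libraries were at 0, so that rate does not apply to them. The share and the level rest on the same 23 maternal read bases and are not separate results.

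Parental bias differed between culture and cortex by the test of the difference itself. For day 12 against E13.5 the log2 difference was 6.42 for Zdbf2 and 0.88 for Adam23, and for day 21 against P0 it was 5.42 and 0.62. With counts divided by 3 the Adam23 differences were 0.87 and 0.65 and did not pass.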

How the results depend on the processing

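Under other settings 424 recomputed values were classed as unchanged, 6 reversed, 4 newly passed, 17 no longer passed and 20 counts moved by over 1.5 times. With 1 library left out these numbers were 473, 28, 6 and 22. Unchanged means the same direction and side of the threshold for a test. For a count of genes passing it means within 1.5 times, and for a gap in share without a p, within the larger group SD. Any test with no adjusted p was also classed as unchanged. The 424 is thus not a number of stable calls. The cause of each change below was not tested. In limma the ESC parental bias of Zdbf2 was -2.10 and that of Adam23 at E13.5 -1.03, neither passing, and the Zdbf2 strain bias was 1.12 in ESC and 0.71 at E13.5, neither passing. The P0 parental bias of Zdbf2 passed at -5.42 in limma, -6.95 in DESeq2 and -5.60 with separate scaling of the alleles. Zdbf2 strain bias did not pass at 1.20 (DESeq2 and counts divided by 3) at E13.5, 0.47 (DESeq2) at day 12 or 0.44 (DESeq2) at day 21. Adam23 strain bias in ESC was 0.26 and did not pass in DESeq2, in limma, with counts divided by 3 or without a floor. The Adam23 difference in bias did not pass at 0.87 for day 12 against E13.5 (counts divided by 3), nor for day 21 against P0 at 0.65 (counts divided by 3) and 0.59 (limma). The Zdbf2 difference between day 12 and ESC passed at 1.61 with only these stages fitted. Between day 21 and day 12, where no value of either gene passed, Adam23 level turned to -0.028 (DESeq2), -0.026 (RLE factors) and -0.021 (library totals), and with counts divided by 3 the maternal Zdbf2 level turned to 0.026 and the paternal to 0.038. Library totals without TMM, an alternative added after seeing the data, gave -0.0016 for Zdbf2 at day 12 against E13.5 and -0.58, not passing, for paternal Zdbf2 at day 12 against ESC.

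Counts of genes passing parental bias were 126 in ESC (39 in limma, 75 in DESeq2), 184 at day 12 (67 in limma, 93 in DESeq2, 117 with counts divided by 3) and 153 at day 21 (59 in limma, 98 in DESeq2). For strain bias they were 4010 in ESC (2558 in limma, 2318 in DESeq2), 3712 at day 12 (1639 in limma, 1650 in DESeq2, 2468 with counts divided by 3), 3799 at day 21 (1801 in limma, 1691 in DESeq2) and 4588 at E13.5 (2876 in DESeq2). For the difference in bias they were 29 for day 12 against ESC (12 with counts divided by 3, 18 with only these stages fitted), 5 for day 21 against day 12 (2 with counts divided by 3) and 13 for P0 against E13.5 (8 with counts divided by 3, 6 in limma).

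With 1 library left out, parental bias ranged over -0.061 to 0.018 for Adam23 in ESC and -7.11 to -5.26 for Zdbf2 at P0. Strain bias ranged over 0.22 to 0.30, -0.12 to 0.15 and -0.062 to 0.13 for Adam23 in ESC, day 12 and day 21, and 0.67 to 1.70 and 0.86 to 3.31 for Zdbf2 at E13.5 and P0. Differences in bias ranged over -0.025 to 0.071 (day 21 against day 12) and -0.50 to 1.66 (P0 against E13.5) for Zdbf2. For Adam23 they ranged over 0.44 to 0.69 (P0 against E13.5), 0.73 to 1.00 (day 12 against E13.5) and 0.51 to 0.71 (day 21 against P0). Zdbf2 levels ranged over -0.56 to -0.038 (day 12 against ESC), -0.22 to 0.14 (day 21 against day 12) and -0.084 to 0.29 (day 12 against E13.5). Its maternal level ranged over -0.18 to 0.36 for day 21 against day 12. Its paternal level ranged over -1.06 to -0.57 (day 12 against ESC), -0.21 to 0.14 (day 21 against day 12) and 0.55 to 0.82 (day 21 against P0). For day 21 against day 12 Adam23 ranged over -0.30 to 0.18 (sum), -0.16 to 0.32 (maternal) and -0.43 to 0.027 (paternal), and its paternal level over -0.25 to 0.10 for day 12 against E13.5.

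Replicate numbers were not shown to pair samples: correlations of same-numbered deviations lay between -0.461 and 0.175. With the number as a block, the Adam23 difference in bias for day 21 against P0 was 0.56, not passing, and counts of differences in bias were 23, 4, 12, 76 and 75 against 29, 5, 13, 84 and 88 without it. Depth limits the in vivo maternal Zdbf2 values, which rest on 0 to 23 read bases.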
